A study of Homo sapiens with 2 samples.

Results

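The BCL2 family is the set of proteins that decides whether the mitochondrial outer membrane is breached during apoptosis. Expression of 10 of its genes was followed here, found by Entrez Gene identifier among the 16085 genes and loci that the deposited tables list. They fall into 3 classes by their known role. The guardians BCL2, BCL2L1 (BCL-XL), MCL1 and BCL2A1 (A1, or BFL-1) hold the cell death machinery in check. The executioners BAX and BAK1 assemble into the pores. The BH3-only genes BCL2L11 (BIM), BBC3 (PUMA), PMAIP1 (NOXA) and BID code for the sensors that carry stress signals to the other classes. All 10 genes were listed in both libraries, and all 10 reached an FPKM of 1 (fragments scaled to gene length and to the library total) in at least 1 of them, the minimum for a gene to be called measured here.

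The study sequenced poly(A)-selected RNA from 1 library of control short-hairpin cells, labelled shCtrl, and 1 library of cells with a ZEB1 knockdown, labelled shZEB1. Both are labelled as MDA-MB-231, a human triple-negative breast carcinoma line. ZEB1 is a zinc-finger repressor known for the epithelial-to-mesenchymal transition, and the series set out to find what links it to the polarization of tumour macrophages. The vector, the hairpin sequence, the time after its delivery and whether the cells were clonal are not stated in the sources used here, and any vector or selection common to both libraries cannot be told apart from the line itself.

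The libraries held 8740584 and 8441491 assigned reads. ZEB1 itself had 46 reads in shCtrl and 15 in shZEB1, an FPKM of 0.88 and 0.31. Against the label of a breast line, melanocyte markers were abundant in both: the 6 checked ranged from 55.1 FPKM (MITF) to 703 (PMEL) in shCtrl and from 52.2 to 405 in shZEB1. Of 6 genes looked up as markers of the labelled breast line, EGFR, KRT7 and F3 stayed below 2 FPKM in both libraries, and KRT18, CAV1 and PLAUR lay between 31.5 and 58.7. With no replicate in either group there is no test between conditions. Every interval below is a 95% exact interval that covers counting error only, and differences between cultures were not measured. In RNA from whole cultures, a change in every cell and a change in the share of cells that make a transcript cannot be told apart.

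In healthy and malignant cells alike, guardians bind the BH3 segment of BH3-only proteins and executioners in a groove on their surface, and a cell dies by this route when the sensors outweigh the guardians. MCL1 and NOXA are short-lived proteins whose amounts follow transcription and degradation closely. BCL2A1 is a known target of NF-kB in lymphoid cells, and in melanocytes and melanoma it is known as a target of MITF, which is also known to act on BCL2. BBC3, PMAIP1 and BAX are known to be induced by DNA damage, and BCL2L11 is known to be induced by FOXO factors and restrained by ERK signalling.

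On hg38, by the RefSeq annotation of GRCh38.p14, the guardians lie at chr18:63123346-63320090 (BCL2), chr20:31664452-31723963 (BCL2L1), chr1:150574558-150579610 (MCL1) and chr15:79960892-79971196 (BCL2A1). The executioners lie at chr19:48954875-48961798 (BAX) and chr6:33572552-33580276 (BAK1). BCL2L11 is at chr2:111120914-111168445, BBC3 at chr19:47220824-47232860, PMAIP1 at chr18:59899996-59904305 and BID at chr22:17734138-17774665. Exons of BAK1, BBC3, BCL2L1, BCL2L11 and MCL1 overlap those of a non-coding gene or a pseudogene in GENCODE release 29. None of these overlapping genes was found in either table under its GENCODE symbol. The sources used here do not state whether counting used strand, and without it, reads of a gene and of a partner on the other strand cannot be told apart. ADAMTSL4-AS1, which overlaps MCL1, and MIR3191, which overlaps BBC3, lie on the same strand, where strand would not separate the reads. The expected counts of the 10 genes were whole in both libraries.

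The members' starts were searched for short motifs of factors known to act on the family, in RefSeq windows of 250 bases before to 50 after each start (14 windows for 9 of the 10 genes). The E-box CACCTG, the form that ZEB1 is known to bind, was sought on both strands and stood in 1 of the 14 windows, that of BAX, against 20.6% of all 35116 windows. CACATG, a form that MITF is known to bind, stood in those of BCL2A1 and BID (11.1% of all windows). CACGTG, read by MYC, MITF and other basic helix-loop-helix factors, stood in windows of BAX, BBC3 and BID (7.26% of all). TGANTCA, the AP-1 motif, stood in that of BBC3 (7.71%). The consensus decamer of NF-kB stood in 0 of the 14 (5.91% of all), which says only that these letters are not in these windows. TATAAA stood in windows of BCL2A1 and BCL2L1 (11.5%). The stretches below are shown because they come from the member that differed most between the libraries (BCL2A1) and, for comparison, from BAX and BBC3, damage-responsive members that differed little. They are in GRCh38.p14, read 5′ to 3′ on the strand of the gene, and capitals mark the motif. A match of letters is not a bound site.
BCL2A1, chr15:79971204-79971233, minus strand, with the CACATG form on the other strand: tccatgtatcatCATGTGtcataactcagt
BAX, chr19:48954725-48954814, plus strand, with 3 E-boxes: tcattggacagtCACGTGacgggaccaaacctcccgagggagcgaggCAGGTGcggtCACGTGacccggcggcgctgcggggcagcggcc
BBC3, chr19:47232882-47232911, minus strand, with CACGTG: atggggagatttCACGTGagatatagatta
BBC3, chr19:47232763-47232792, minus strand, with the AP-1 motif: ggcactggaaggTGAGTCActctggtgagg
The BCL2A1 stretch begins 37 bases before the RefSeq start and lies in the first exon of a longer GENCODE model. The BAX window held CACGTG 4 times, at 138, 93, 45 and 14 bases before the start, and the stretch shown holds those at 138 and 93 with CACCTG between them, read on the other strand.

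Of the 10 genes, BCL2A1 alone differed by more than 2-fold between the libraries. It had 354 reads and an FPKM of 48.1 in shCtrl, and 113 reads and 15.8 FPKM in shZEB1. This is a 3.05-fold lower level, with a ratio of reads, scaled to library totals, of 0.331 (interval 0.265 to 0.410). On the log2(FPKM + 1) scale used throughout, which understates differences of scarce genes, its ratio was -1.55. The size rule for a call was a log2 ratio of at least 1 in either direction together with a read interval that excluded 1. By that rule 1 of the 10 members was called lower and 0 were called higher. Over all 12274 measured genes and loci it called 1.61% lower and 0.937% higher, 2.55% in all. Only 49 of the 12274 had a lower log2 ratio than BCL2A1. Its place among the genes listed in a library moved from above 88.3% of them in shCtrl to above 68.6% in shZEB1.

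**Figure D1:**
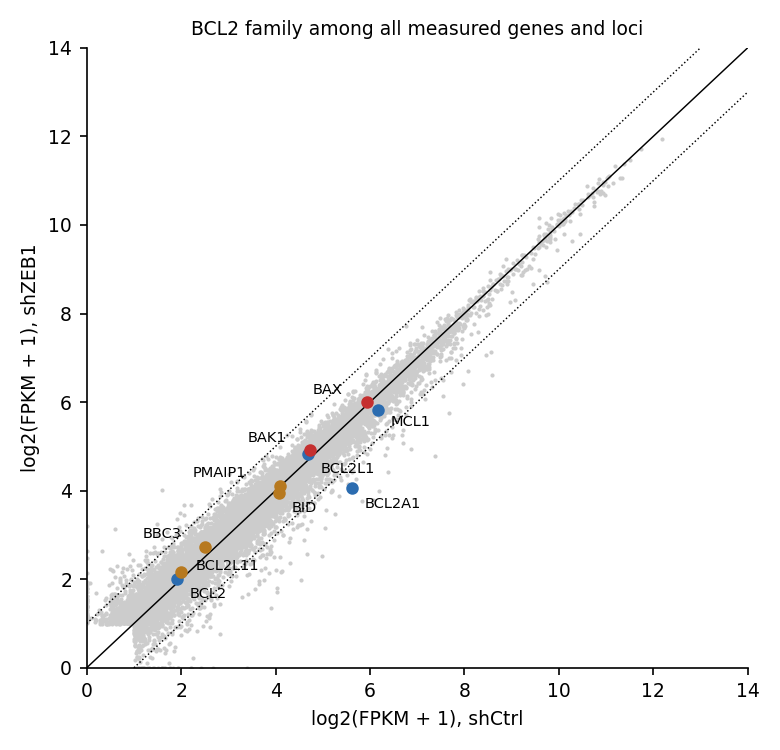
Each grey point is a gene or locus with an FPKM of at least 1 in either library, by log2(FPKM + 1) in shCtrl (x axis) and shZEB1 (y axis). Coloured points are the 10 family members (blue guardians, red executioners, ochre BH3-only), the solid line marks equal levels and the dotted lines a log2 ratio of 1 and -1. BCL2A1, at a log2 ratio of -1.55, is the member beyond the lower dotted line.

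MCL1, the most abundant guardian, was also lower in shZEB1, by less. It had 2507 reads and 70.8 FPKM in shCtrl, and 1918 reads and 56.0 FPKM in shZEB1, which is 1.26-fold lower (read ratio 0.792, interval 0.746 to 0.841). Its interval excluded 1, but its log2 ratio of -0.33 was far from the size rule. Read intervals excluded 1 for 3 of the 10 members, MCL1 and BCL2A1 below and BAK1 above. Over all measured genes and loci this was so for 49.3%, with 21.4% lower and 27.9% higher, so the family's share of such intervals was no higher than that of the tables at large.

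The other guardians lay slightly the other way, within counting error. BCL2L1 had 564 reads and 24.8 FPKM in shCtrl against 588 reads and 27.5 FPKM in shZEB1 (read ratio 1.08, interval 0.960 to 1.21). BCL2, the founding member and a gene first found at a lymphoma translocation, had 99 reads and 2.78 FPKM against 116 reads and 3.01 FPKM (read ratio 1.21, interval 0.920 to 1.60). BCL2 thus had the lowest FPKM of the 10 in both libraries, with a counting interval that overlapped that of BCL2L11 in each. It stood above only 33.9% of the listed genes in shCtrl and 34.3% in shZEB1.

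Both executioners were abundant and near equal between the libraries. BAX had 432 reads and 60.4 FPKM in shCtrl, and 443 reads and 63.1 FPKM in shZEB1 (read ratio 1.06, interval 0.928 to 1.21). BAK1 had 481 reads and 25.7 FPKM against 531 reads and 29.2 FPKM. Its read ratio of 1.14 had an interval of 1.01 to 1.30, whose lower end only just cleared 1, and its log2 ratio was 0.18.

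None of the 4 BH3-only genes had an interval that excluded 1. PMAIP1 had 267 reads and 16.1 FPKM in shCtrl against 262 reads and 16.3 FPKM in shZEB1 (read ratio 1.02, interval 0.854 to 1.21). BID, which caspase-8 cleaves to link death receptors to mitochondria, had 297 reads and 16.0 FPKM against 262 reads and 14.4 FPKM (read ratio 0.913, interval 0.771 to 1.08). BBC3, with 70 reads and 4.71 FPKM against 84 reads and 5.66 FPKM, had the widest interval of the 10, from 0.894 to 1.73.

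BCL2L11 showed how the gene length used in FPKM enters these values. It had 117 reads in shCtrl and 114 in shZEB1, a read ratio of 1.01 (interval 0.773 to 1.32). Its FPKM nevertheless went from 2.97 to 3.48, a ratio of 1.17, because the length the authors used for it was 4558 bases in shCtrl and 3924 in shZEB1. The gene has 20 transcript models in the tables, and such a length is known to be an average weighted by the estimated share of each. BCL2 moved the other way, with lengths of 4130 and 4601 bases, so that its FPKM ratio of 1.08 was smaller than its read ratio. For BCL2L11 and PMAIP1 the sign of the log2 ratio changed with the scaling (from -0.04 to 0.25 and from -0.03 to 0.07), so no direction is given for either.

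**Figure D2:**
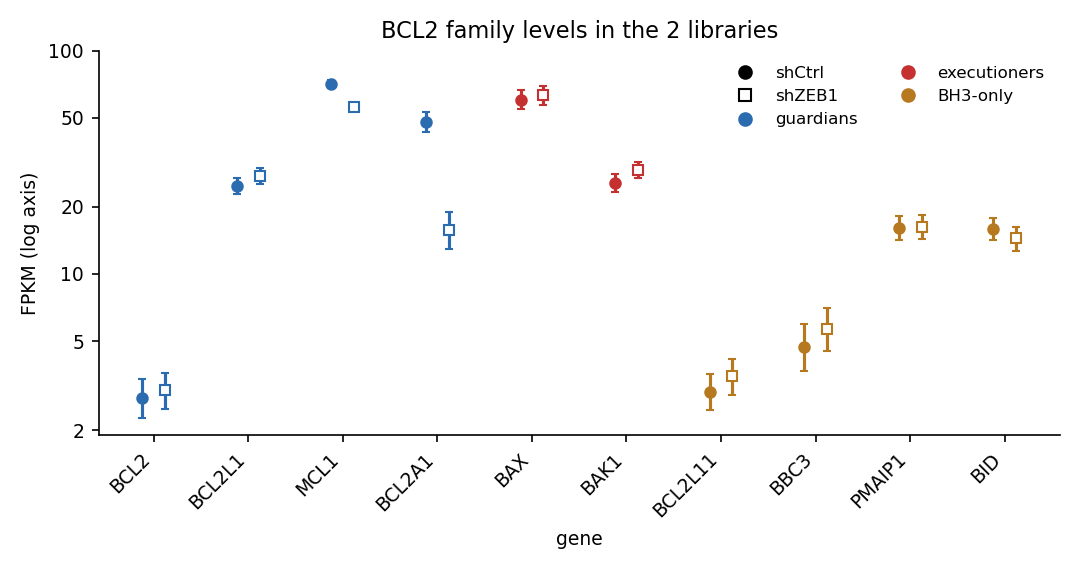
FPKM of each family member on a log axis, filled circles for shCtrl and open squares for shZEB1, coloured by class, with 95% exact Poisson intervals of the read count as bars. BCL2A1 (48.1 and 15.8) and MCL1 (70.8 and 56.0) are the genes whose bars do not overlap between the libraries.

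Because FPKM is per length, levels can be set side by side across genes of a library. In shCtrl the order was MCL1, BAX, BCL2A1, BAK1, BCL2L1, PMAIP1, BID, BBC3, BCL2L11 and BCL2. The counting intervals of BAK1 and BCL2L1 overlapped, as did those of PMAIP1 and BID and those of BCL2L11 and BCL2, so the order within these pairs is not settled. In shZEB1 BAX stood first and MCL1 second, with overlapping intervals (57.4 to 69.3 and 53.5 to 58.5 FPKM). BCL2A1 dropped from rank 3 to rank 6, where its interval of 13.0 to 19.0 FPKM overlapped those of PMAIP1 and BID. The remaining 7 members kept their order relative to each other.

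Summed over the class, guardian transcripts were 1.43-fold lower in shZEB1, while the sums of the other classes differed by less. The 4 guardians came to 146 FPKM in shCtrl and 102 in shZEB1. BCL2A1 accounted for 73.1% of this difference and MCL1 for 33.5%, offset in part by BCL2L1. The make-up of the class shifted accordingly: BCL2A1 made up 32.8% of guardian FPKM in shCtrl and 15.4% in shZEB1, MCL1 48.3% and 54.7%, BCL2L1 16.9% and 26.9%, and BCL2 1.90% and 2.94%. The executioners summed to 86.1 FPKM in shCtrl and 92.4 in shZEB1, with BAX at 70.2% and 68.4% of the sum. The BH3-only genes summed to 39.7 and 39.9 FPKM, of which PMAIP1 and BID together made the larger part in both libraries.

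**Figure D3:**
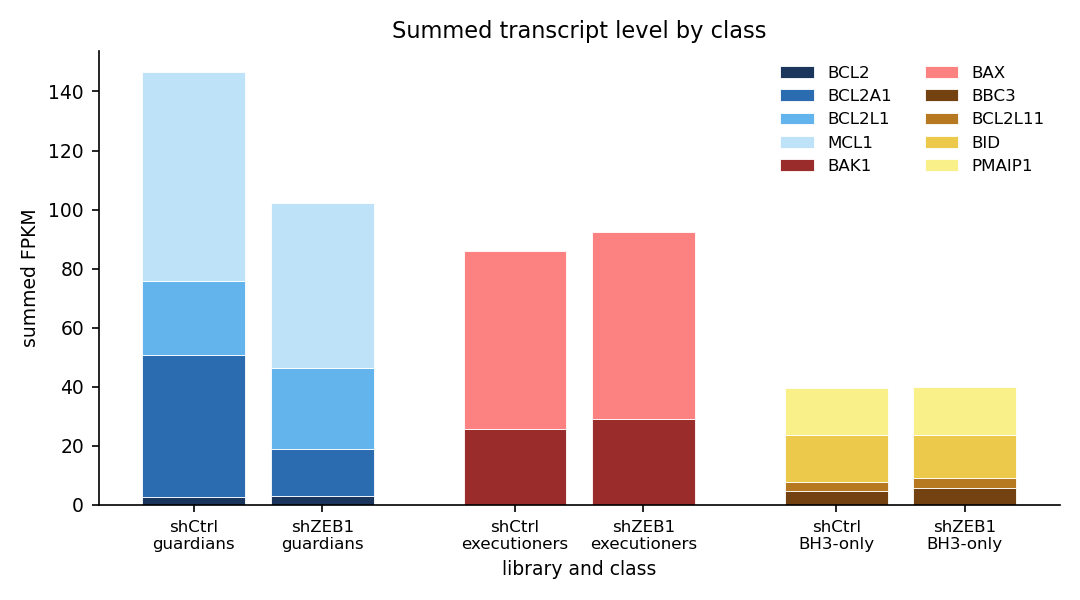
Stacked bars of summed FPKM, 1 bar per class and library, starting at 0, with each gene a segment. The guardian bar goes from 146 in shCtrl to 102 in shZEB1, most of it in the BCL2A1 segment, and the other classes stay near 86.1 and 92.4 and near 39.7 and 39.9.

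Guardian over executioner transcripts stood at a ratio of 1.70 in shCtrl and 1.11 in shZEB1. Bounds made by taking every gene to the end of its counting interval were 1.44 to 2.01 and 0.933 to 1.32. With BCL2A1 left out, a choice made after seeing the data, the ratio was 1.14 in shCtrl (bounds 0.986 to 1.33) and 0.936 in shZEB1 (bounds 0.804 to 1.09), and the bounds overlapped. Guardian over BH3-only transcripts went from 3.69 to 2.56, and from 2.47 to 2.17 without BCL2A1. BH3-only over executioner transcripts were 0.462 and 0.432. These are ratios of transcript levels, and no protein was measured.

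Taken gene by gene, the classes lay close to the tables as a whole. The median log2 ratio was -0.12 for the guardians, 0.12 for the executioners and 0.10 for the BH3-only genes, against 0.02 over all measured genes and loci. The guardian median was 0.09 without BCL2A1, and that of the BH3-only genes was -0.04 on read counts scaled by edgeR. The central 95% of all measured genes lay between -0.86 and 0.77, and 9 of the 10 members fell inside it.

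Outside these 10 genes, 13 further relatives of the family were looked up, of which 11 were listed and 9 measured. By the size rule 0 of the 9 were counted in either direction, against 2.55% of all measured genes and loci. Read intervals excluded 1 for 7, 3 higher and 4 lower, against 27.9% higher and 21.4% lower among all measured genes and loci. BMF, a BH3-only sensor of cell detachment, had 55 reads and 1.40 FPKM in shCtrl and 109 reads and 2.86 FPKM in shZEB1, a 2.04-fold higher FPKM (read ratio 2.05, interval 1.47 to 2.89). The pseudocount lowers its log2 ratio, to 0.69, but under the alternative settings given below it reached at most 0.98, still short of 1. Of those settings only the 1.5-fold rule counted it. BOK, a relative of BAX and BAK1, was 1.72-fold lower (7.38 against 4.28 FPKM), with a read interval of 0.450 to 0.782. HRK, a BH3-only gene best known in neurons, had 28 reads in shCtrl and 15 in shZEB1, too few to set the libraries apart (read interval 0.275 to 1.08). BCL2L2 (BCL-W), a further guardian, had 11.4 and 14.3 FPKM, but shares exons with the read-through gene BCL2L2-PABPN1. BAD, a BH3-only gene controlled by growth factor kinases, had 15.8 and 11.0 FPKM and has exons that overlap GPR137 on the other strand.

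**Figure D4:**
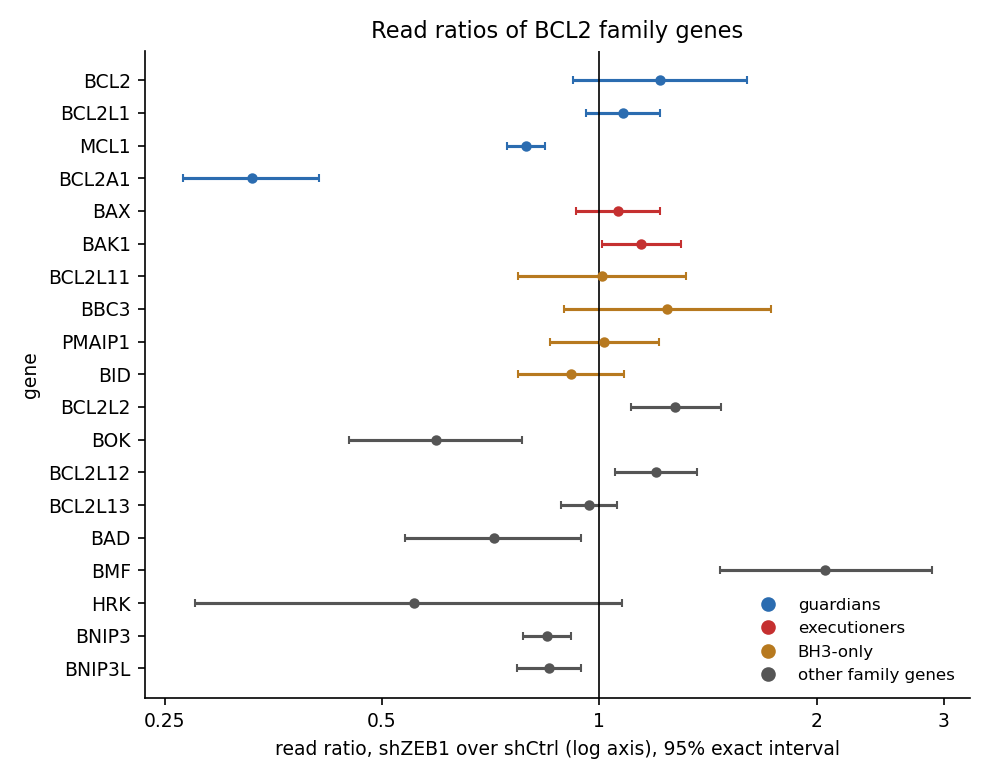
Read ratio of shZEB1 over shCtrl on a log axis for the 10 members and the 9 measured relatives, with 95% exact binomial intervals and a line at 1. BCL2A1 (0.331) lies farthest to the left and BMF (2.05) farthest to the right.

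Downstream of the mitochondrion, of 9 caspases and adaptors, 8 were measured. Of these, 0 met the size rule in either direction, against 2.55% of all measured genes and loci. The median log2 ratio was 0.37 against 0.02 for all measured genes. Read intervals lay above 1 for 5 of the 8 and below 1 for 1, where 27.9% of all measured genes and loci lay above and 21.4% below. CASP8, the initiator at death receptors, had 11.2 and 17.3 FPKM (1.54-fold, interval of the read ratio 1.31 to 1.78). CASP2, at 21.9 and 28.7 FPKM, and CASP9, the initiator of the apoptosome, at 4.41 and 5.94, were among the others. FADD, the adaptor that recruits caspase-8, was lower, at 64.8 and 42.7 FPKM (1.52-fold, interval 0.599 to 0.731).

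Genes of the mitochondrial release step showed no common direction. Of 9 measured, 0 met the size rule, 3 had intervals above 1 and 3 below. Among all measured genes and loci the size rule called 2.55%, and intervals lay above 1 for 27.9% and below 1 for 21.4%. APAF1, the scaffold of the apoptosome, had 7.18 and 9.83 FPKM, ENDOG, a mitochondrial nuclease, 26.7 and 18.2, and VDAC3, an outer membrane channel, 59.6 and 47.6. APAF1 and ENDOG each overlap a listed gene on the other strand. Among inhibitors of apoptosis proteins, 6 of 8 were measured and 0 met the size rule. NAIP had 66 and 131 reads (interval 1.52 to 2.81), BIRC7 (livin), which is known from melanoma, 31.7 and 22.5 FPKM, and BIRC6 9.52 and 12.3.

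Genes outside the family that are known to respond to DNA damage were also mixed. Of 18 genes, 17 were measured, 1 was counted as lower and 0 as higher, and the median log2 ratio was 0.15. Over all measured genes and loci 1.61% were called lower and 0.937% higher, and the median was 0.02. SESN2, a stress-inducible inhibitor of mTORC1 that ATF4 is also known to induce, was the lower one, at 13.1 and 4.94 FPKM (2.66-fold, interval 0.310 to 0.457). Its relative SESN1 had 46 and 92 reads (interval 1.44 to 3.02), and BTG2 had 25 and 46 (interval 1.15 to 3.24).

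Among 15 transcription factors known to act on family genes, 3 were counted as lower and 0 as higher, and read intervals excluded 1 for 13, 9 lower and 4 higher. Of all measured genes and loci, 1.61% were called lower, and intervals excluded 1 for 49.3% (21.4% lower and 27.9% higher). JUN was 6.46-fold lower and ATF3 3.28-fold. DDIT3 (CHOP), known to act on BCL2L11 and BBC3 under endoplasmic reticulum stress, had 35.7 and 17.3 FPKM, so that its log2 ratio stood at the threshold and missed the rule when TPM was used. Its exons overlap MBD6 and MARS on the other strand and AC022506.1 on its own strand. RELA, the main activating subunit of NF-kB, had 52.5 and 39.9 FPKM, and MITF 55.1 and 52.2 (interval of its read ratio 0.892 to 1.01). Of the 6 melanocyte markers, MITF included, 0 met the size rule, all 6 had a negative log2 ratio (median -0.25) and 4 had read intervals below 1. Of the 12274 measured genes and loci, 5729 had a negative log2 ratio and 21.4% had intervals below 1. DCT, an enzyme of melanin synthesis, was the lowest of them (225 and 123 FPKM, 1.84-fold lower), followed by PMEL (703 and 405 FPKM, 1.73-fold). Exons of PMEL overlap CDK2, and those of SOX10 overlap POLR2F, each a listed gene on the other strand. SOX10 was the marker whose sign changed with the scaling. FOXO3 had 6.79 and 5.31 FPKM. The part of any of these factors, or of the cells' melanocyte markers, in the level of BCL2A1 or MCL1 was not tested.

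Genes that set the stability or location of family proteins differed little. Of 8 measured, 0 met the size rule and the median log2 ratio was 0.05, against 2.55% and 0.02 over all measured genes and loci. DYNLL1, a dynein light chain that binds BIM, had 364 and 292 FPKM. GSK3B, a kinase that marks MCL1 for degradation, had 10.3 and 11.8, and HUWE1, a ubiquitin ligase of MCL1, 40.1 and 45.4. USP9X, which removes ubiquitin from MCL1, had 12.2 FPKM in each library.

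**Figure D5:**
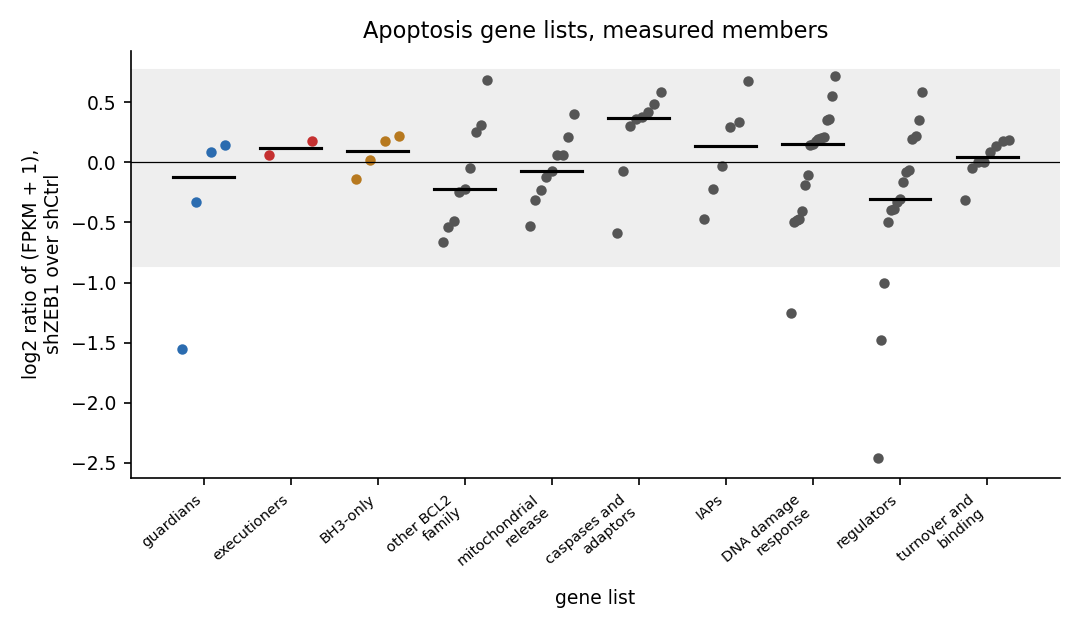
Log2 ratio of (FPKM + 1), shZEB1 over shCtrl, for each measured gene (points) of the 3 classes and 7 further apoptosis lists, with list medians as bars. The grey band spans -0.86 to 0.77, the central 95% of all measured genes and loci. BCL2A1, SESN2, JUN, ATF3 and DDIT3 lie below it, and the caspase median stands at 0.37.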

How the data were processed

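Poly(A)-selected RNA of 2 libraries, 1 per group, was sequenced on a DNA nanoball platform. Per the submitters' processing notes, hg38 was used with RSEM 1.2.8, Bowtie2 2.2.5, HISAT2 2.1.0 and DESeq, in roles that are not stated there. Per the file headers, the authors deposited an expected count (estimated reads), a gene length and an FPKM value per gene. Genes absent from a table were entered at 0.

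Log2 ratios used FPKM with a pseudocount of 1. Read ratios have 95% exact conditional binomial (Clopper-Pearson) intervals on rounded counts scaled by summed counts, and single levels have exact Poisson intervals. Reads copied by PCR are not independent molecules, so intervals cover counting error only. Calls were first tried on data simulated with counting error alone. That is the model the intervals assume, so the trial could not show how calls behave with differences between cultures. Alternatives were a pseudocount of 0.1, TPM, centring on the median ratio, TMM factors (edgeR 4.0.16) and size factors (DESeq2 1.42.0) on counts plus 0.5, other FPKM minima and a 1.5-fold rule. With 1 library per group no test was run. Symbols, coordinates and windows came from RefSeq (GRCh38.p14), matching 15183 of 15217 numeric identifiers.

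Members and lists were chosen with earlier results of these data known. Named genes were ZEB1, the 10 members and, of each list, those called and the 3 with the largest absolute log2 ratio. BCL2L2, BAD, CASP2, CASP9, RELA, MITF, FOXO3 and USP9X were named after their values were seen. Some genes of these lists, 1 of which the rule names, are not reported here.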

Additional observations from a re-analysis of the deposited data

How the results depend on the processing

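BCL2A1 was counted as lower under each of the 8 alternatives, with log2 ratios from -1.65 to -1.53, and no other member was counted under any of them. The other FPKM minima and the 1.5-fold rule leave the value of BCL2A1 as it was, so they could not change its call. Guardian over executioner transcripts stood at 1.75 in shCtrl and 1.14 in shZEB1 when taken from reads per gene length. They stood at 1.67 and 1.07 with an FPKM of at least 5 required. The other alternatives could not change this ratio, which is taken within a library. Without BCL2A1, which was tried after seeing the data, the ratio was 1.14 in shCtrl and 0.936 in shZEB1, and the guardian median log2 ratio was 0.085. With an FPKM of at least 5 required, BCL2 dropped out and the guardian median became -0.33. Counts over all measured genes and loci, 115 higher and 198 lower, were 311 and 294 with a pseudocount of 0.1, 236 and 227 with TPM, 308 and 333 with edgeR factors, 309 and 331 with DESeq2 factors, 44 and 134 with an FPKM of at least 5, and 611 and 664 with a 1.5-fold rule. The edgeR and DESeq2 settings also replaced the pseudocount of 1 FPKM by 0.5 reads, so their counts do not show the scaling factors alone. The pseudocount of 0.1, the minimum of 5 FPKM and the 1.5-fold rule each changed nothing else, so their shifts follow from that setting. The cause of the other shifts in these counts was not tested. No paired analysis was possible because each group has 1 library. For the same reason no replicate could be left out. Depth limits BCL2, BCL2L11 and BBC3 most, with 70 to 117 reads each in either library and read intervals that together span 0.773 to 1.73.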
